A study of Mus musculus with 9 samples.

Results

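The transcriptome described here is that of LepR+ cells, the leptin receptor expressing stromal cells of the bone marrow, sorted from untreated mice at 12 weeks of age. It was read from 3 of the 9 libraries of the series, the young replicates 1, 2 and 3, and covered 52459 gene symbols, of which 25506 had a read in at least 1 of the 3 libraries and 16975 in all 3. The series title gives the mice as C57B6. Cells were freed from tibiae and femurs with collagenase, and flow cytometry took the LepR+ cells out of their non-hematopoietic fraction. The other 6 libraries, not used here, came from LepR+ cells of mice at 52 weeks given sodium salicylate and of untreated mice at 52 weeks. Which animals, and how many, gave each young replicate is not stated, so the spread between the 3 libraries may be technical, biological or both.

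LepR+ cells lie around the sinusoids of adult bone marrow and overlap broadly with the cells known as CXCL12-abundant reticular cells. They are the main marrow source of the chemokine CXCL12 and of stem cell factor, which keep blood-forming stem cells in place and alive. In lineage tracing of mice they also give rise to bone-forming osteoblasts and to marrow adipocytes. A sorted population of this kind is therefore read for niche signals, for early bone and fat genes, and for the traces of other cells that came through the sort.

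Levels are given as normalized counts, reads of a gene divided by 1 scaling factor per library, and each value is followed, where a mean is given, by the standard deviation (SD) of the 3 libraries. Longer transcripts collect more reads, so ranks and list sums of normalized counts also reflect transcript length, and folds between genes were taken per kilobase (kb) of the longest annotated transcript. The libraries held between 10973002 and 20746804 reads, with replicate 2 the deepest and replicate 3 the shallowest, and 20388 to 21370 genes with a read. A count of 0 allowed a level of up to 3 reads, which was 1.79 to 3.37 normalized counts depending on the library, for counting error only. With 1 group of 3 libraries no test was run, since flipping signs over 3 libraries in an exact permutation test, two-sided, cannot give less than p = 0.25, and folds between genes are given with the number of libraries that showed them.

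The counts were concentrated in few genes. The 2 mitochondrial ribosomal RNAs took 35.1%, 31.9% and 27.5% of the normalized counts of replicates 1, 2 and 3, and nuclear protein-coding genes took 60.3%, 63.9% and 67.8%. Replicate 3 was the lowest in the mitochondrial RNAs and the highest in the protein-coding share. Outside the mitochondrial ribosomal RNAs, the 10 leading genes held 13.3% ± 1.3, the 100 leading genes 32.6% ± 1.5 and the 1000 leading genes 61.8% ± 1.2 of the counts (SD, n = 3). A mean of at least 10 normalized counts was reached by 14615 genes, a mean of at least 100 by 8357, at least 1000 by 1548 and at least 10000 by 91, of which 84 were protein-coding. When every library had to pass the level, 12419, 7344, 1314 and 81 genes were left.

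**Figure D1:**
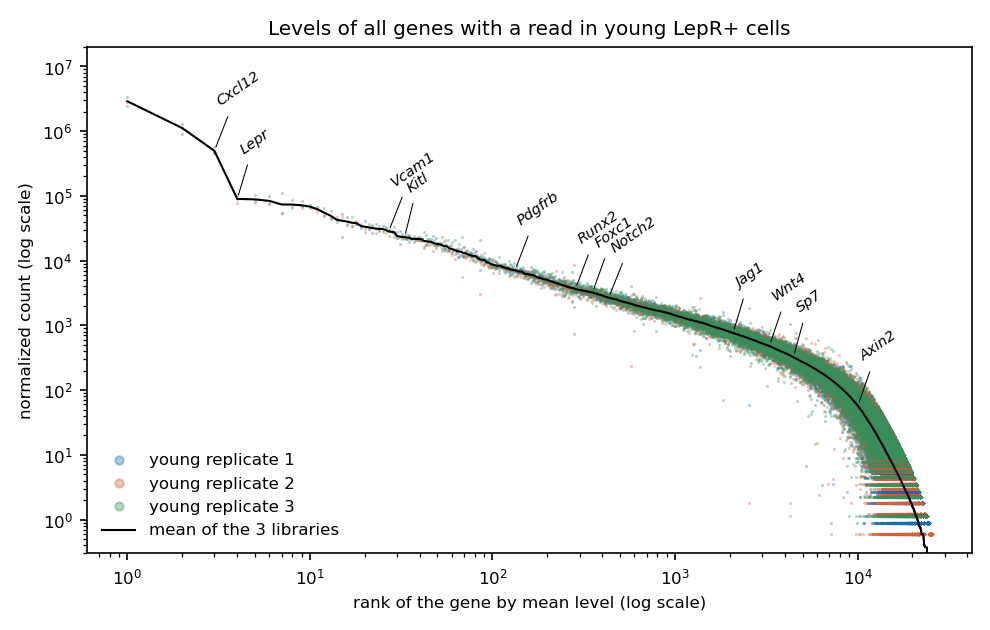
Normalized count of every gene with a read against its rank by mean level, both on log scales, with a point per library and a black line for the mean of 3 young libraries. Points at 0 cannot be drawn on the log axis. Cxcl12 and Lepr stand at ranks 3 and 4, behind only the 2 mitochondrial ribosomal RNAs, while Axin2 stands at rank 10036.

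Cxcl12 and Lepr had the highest mean normalized counts outside the mitochondrial genome. Cxcl12, which encodes the chemokine CXCL12, had 465789, 454524 and 570245 normalized counts, with a mean of 496853 ± 63809 (SD, n = 3), and was the highest gene outside the mitochondrial genome in each library. It alone took 5.70% ± 0.60 of the counts outside the mitochondrial ribosomal RNAs. Lepr, which encodes the leptin receptor on which the cells were sorted, had 89872, 78029 and 102235 normalized counts. Igfbp5 and B2m exceeded it in replicate 3 and Gm23935 in replicate 2, and by mean per kb it stood at rank 15 outside the mitochondrial genome. Replicate 3 was the highest and replicate 2 the lowest for both genes. The cells were sorted on LepR and no library of other cells was compared, so high Lepr is no independent check of the label. Per kb of transcript, Cxcl12 reached 88298 ± 11340 and Lepr 16248 ± 2178 normalized counts, a difference of 5.44-fold that all 3 libraries showed.

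On GRCm38 (GENCODE release M21) the plus strand holds all 3 of the genes Cxcl12, Lepr and Kitl. Cxcl12 spans 117168535 to 117181367 of chromosome 6, and its longest transcript has 4 exons and 5627 bp. Lepr spans 101717404 to 101815352 of chromosome 4, with 19 exons and 5542 bp. Kitl, which encodes stem cell factor, spans 100015630 to 100100416 of chromosome 10, with 10 exons and 5648 bp. Their longest transcripts are thus of nearly the same length, so division by these lengths changes their ratios little. Which isoforms the reads came from was not determined. The 100 bases before the start site of each are shown because the cells were sorted on LepR, and Cxcl12 and Kitl encode the niche factors named above. They were taken from RefSeq on GRCm38.p6, 5′ to 3′ on the gene's strand, at chr6:117168435-117168534 for Cxcl12, chr10:100015721-100015820 for Kitl, and chr4:101717307-101717406 and chr4:101717806-101717905 for the first and the second listed start of Lepr. The listed start of Kitl lies inside the GENCODE gene given above. Capitals mark the letters TATAAA of the TATA box and the letters GGGCGG of the GC box, searched on both strands with overlapping matches counted.
Cxcl12: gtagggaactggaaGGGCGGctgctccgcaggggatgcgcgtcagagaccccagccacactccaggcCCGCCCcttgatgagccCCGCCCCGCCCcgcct
Kitl: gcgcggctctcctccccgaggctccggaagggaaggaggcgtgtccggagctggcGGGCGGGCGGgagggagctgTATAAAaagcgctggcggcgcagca
Lepr, first start: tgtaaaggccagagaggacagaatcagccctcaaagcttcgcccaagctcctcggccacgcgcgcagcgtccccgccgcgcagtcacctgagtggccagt
Lepr, second start: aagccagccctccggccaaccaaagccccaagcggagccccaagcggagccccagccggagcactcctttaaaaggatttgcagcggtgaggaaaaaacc
The Cxcl12 stretch held 4 matches to the GC box and none to the TATA box, and 73% of its bases were G or C. The Kitl stretch held 1 TATA box match and 2 overlapping GC box matches. Neither motif was in the stretches of Lepr. Over all 27025 listed promoters, 25.2% held a GC box match and 5.95% a TATA box match in the same 100 bases. A match here is a match of letters only.

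Genes known to mark LepR+ stroma were nearly all at high levels. Of 33 such genes, 32 had a mean of at least 1000 normalized counts and 15 a mean of at least 10000. Over all genes, 14615 averaged at least 10, 1548 at least 1000 and 91 at least 10000. The list was chosen with earlier results of these data known, so its high levels are not independent evidence of identity. Igfbp5, a secreted binding protein of insulin-like growth factors, had 83536, 77501 and 104205 normalized counts and stood next to Lepr. Per kb it was lower than Lepr in 3 of 3 libraries, by a Lepr to Igfbp5 ratio of only 1.11. Chrdl1, a secreted antagonist of bone morphogenetic proteins (BMPs), had 30822, 26990 and 36187, and Vcam1, an adhesion molecule that binds blood cells, had 29139, 24276 and 31374. Kitl had 25153, 21783 and 22103 normalized counts, highest in replicate 1, and Cxcl12 exceeded it 21.6-fold per kb in 3 of 3 libraries. The exception among the 33 was Nes, which encodes nestin, used in mice to mark perivascular stromal cells through a transgene, with a mean of 12.8.

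Other highly read genes belonged to matrix, protection from oxidation, complement and the immediate response to stimuli. Bgn, the proteoglycan biglycan, had 68892, 64279 and 82074 normalized counts. Selenop, a secreted carrier of selenium, had 48394, 51098 and 65374, and Gpx3, a secreted glutathione peroxidase, had 34011, 34729 and 46639. Each of these was highest in replicate 3, and replicates 1 and 2 lay close together. Serping1, the inhibitor of the first complement protease, had 45483, 43616 and 58711 normalized counts. Tnc, the matrix glycoprotein tenascin C, had 41788, 48023 and 39167, with replicate 2 the highest. Nedd4, a ubiquitin ligase and the last of the 30 leading genes outside the mitochondrial genome, had 21260, 21992 and 21911, a coefficient of variation (CV, the SD as a percent of the mean) of only 1.85%.

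**Figure D2:**
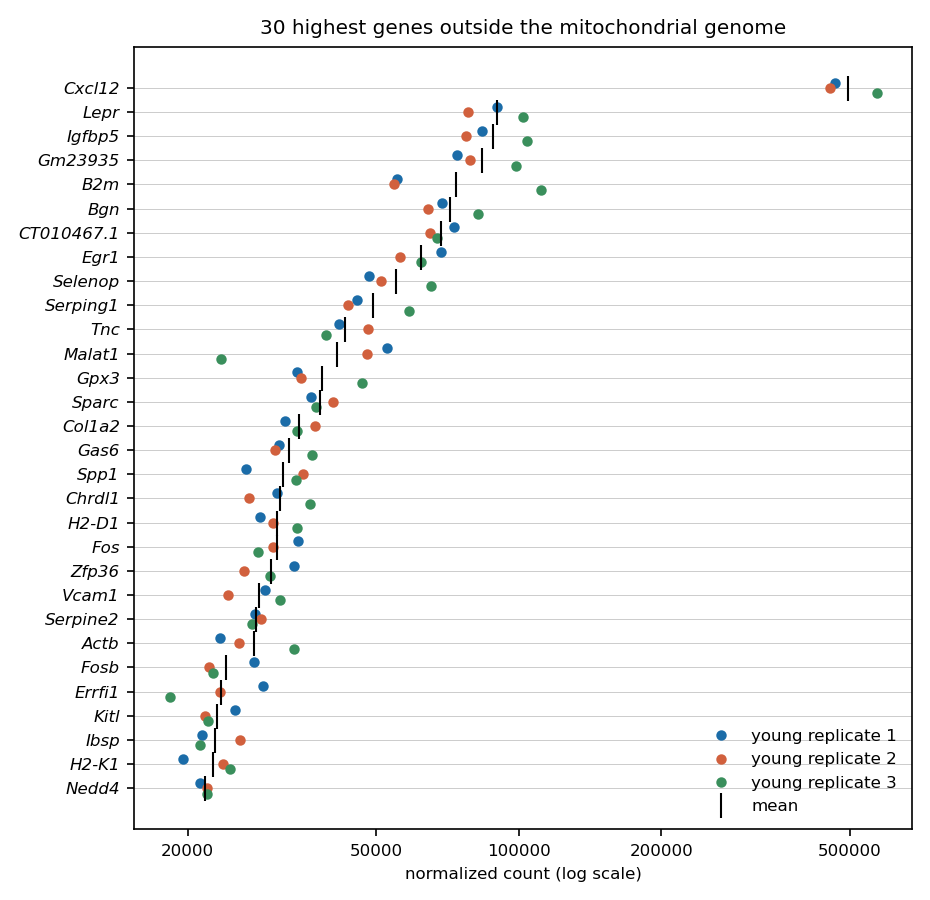
The 30 genes with the highest mean outside the mitochondrial genome, with their normalized count on a log axis in each young library (points) and the mean (black bars). Cxcl12 is set off from all others, B2m is far higher in young replicate 3 (111413) than in replicates 1 and 2 (55244 and 54603), and Malat1 is far lower there (23534 against 52697 and 47733).

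Not all leading entries are messenger RNAs. Gm23935, annotated as a microRNA gene of 57 bp, had 74026, 78782 and 98568 normalized counts, and CT010467.1, annotated as ribosomal RNA, had 73164, 65034 and 67192. With so short a transcript, Gm23935 led the order per kb, followed by a like-sized entry, Gm24187, and then by Cxcl12 and B2m. Reads from repeated or ribosomal sequence can be placed on such entries, and their levels are uncertain for that reason. By mean per kb S100a9, CT010467.1, S100a8, Serping1, Bgn and Selenop came next, down to 26357 normalized counts per kb. S100a9 and S100a8 were above CT010467.1 in replicate 3 and below it in replicates 1 and 2, so these neighbours could not be ordered. B2m at 85760 ± 37925 per kb was below Cxcl12 in 2 of 3 libraries and above it in replicate 3, so that pair could not be ordered.

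Factors that support blood formation were unevenly represented. Of 24 listed factors, 12 had a mean of at least 1000 normalized counts, while Thpo, Epo, Csf2 and Il3, the genes of thrombopoietin, erythropoietin, GM-CSF and interleukin-3, had no read in any library. Cxcl12 made up 80.1% ± 1.2 of the summed level of the list. Csf1, the growth factor of macrophages and osteoclast precursors, had 9593, 8130 and 10217 normalized counts, and Kitl was 1.83-fold higher per kb in 3 of 3 libraries. Angpt1, angiopoietin-1, had 4045, 3349 and 3624, and Bmp6 had 6605, 6624 and 6840, a CV of 1.95%. Il7, the growth factor of developing lymphocytes, averaged 1884 normalized counts, Il34, another ligand of the CSF1 receptor, 1819, and Flt3l, the ligand of FLT3, 51.0.

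In a list of 14 genes of leptin signaling, which includes Lepr, 13 averaged at least 100 normalized counts. Lep, the gene of leptin itself, had no read. Socs3, the feedback inhibitor of the receptor, had 7561, 6087 and 6709 normalized counts. Stat3, the transcription factor the receptor activates, had 2270, 2034 and 2025, and Jak2, its kinase, had 1788, 2038 and 1609. The libraries differed little here, with a CV of 6.58% for Stat3 and 11.9% for Jak2.

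Among 53 transcription factors known from marrow stroma, 48 had a mean of at least 100 normalized counts and 31 a mean of at least 1000. Egr1 and Fos, described below among the immediate early genes, are also in this list, and Egr1 took 27.8% ± 1.6 of its sum. Ebf3, which in mice keeps the niche function of these cells, had 16486, 19092 and 14901, and Ebf1 had 4986, 5023 and 5402. Ebf3 was 3.90-fold higher per kb in 3 of 3 libraries. Foxc1, which is needed in mice to form CXCL12-abundant reticular cells, averaged 3204 normalized counts. Runx1 had 14299, 9868 and 10867, and Runx2, the factor that commits cells to bone, had 3357, 3909 and 3688. Per kb Runx1 was 3.49-fold higher than Runx2 in 3 of 3 libraries. Sp7, which encodes osterix, the next factor of the bone lineage, had 249, 355 and 365. Pparg, the master factor of fat cells, had 1354, 1013 and 1555 normalized counts, and Cebpa, its partner, had 1470, 1163 and 1331.

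Immediate early genes, which cells switch on within minutes of a stimulus, were prominent. All 3 libraries came from cells freed with collagenase and sorted, so levels before this handling are not known. The part of handling in these values was not tested. All 31 listed genes averaged at least 100 normalized counts, 23 a mean of at least 1000 and 7 a mean of at least 10000. Egr1 had 68415, 56148 and 62252, Fos had 34119, 30250 and 28186, and Fosb had 27557, 22146 and 22591. Zfp36, whose protein speeds the decay of many inflammatory messenger RNAs, had 33608, 26283 and 29867. Replicate 1 was the highest for 22 of the 31 genes, as it was for 33.5% of all genes averaging at least 10. Cyr61, a secreted matricellular protein, was nearly equal in the 3 libraries at 14747, 14802 and 14859.

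Bone matrix genes ran from the 30 highest genes down to no read. Of 30 listed genes, 14 had a mean of at least 1000 normalized counts. Sparc (osteonectin) had 36461, 40512 and 37341, Col1a2 32024, 37179 and 34047, Spp1 (osteopontin) 26523, 35013 and 33859, and Ibsp (bone sialoprotein) 21397, 25751 and 21274. Replicate 2 was the highest for each of these 4 genes and for 18 of the 26 that averaged at least 10. It was the highest for 32.0% of all genes of that level. Alpl, alkaline phosphatase, averaged 1372 normalized counts and Pth1r, the parathyroid hormone receptor, 455. Bglap, the gene of osteocalcin, averaged 147 and shares reads with its near-identical neighbour Bglap2, at 100, so both are uncertain. Sost, the osteocyte gene of sclerostin, and Ostn had no read. Col1a2 exceeded Col1a1, the other chain of type I collagen, 2.76-fold per kb in 3 of 3 libraries.

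Neighbouring genes differed widely in normalized count, here not divided by length. On chromosome 5, between 104170712 and 104441050, lie 5 genes of secreted acidic phosphoproteins of bone and teeth (the SIBLING family), of which Spp1 and Ibsp reached 31798 and 22807 normalized counts. The 3 others of this stretch stayed low, with 113 for Dmp1, 5.76 for Dspp and 5.57 for Mepe. On chromosome 10, Dcn (decorin) and Lum (lumican) averaged 10259 and 2626, and their neighbours Kera and Epyc 34.2 and 20.7. On chromosome 16, Adipoq, Kng1 and Kng2 averaged 15118, 4530 and 3030, next to Fetub and Ahsg with 1.20 and 1.18 and Hrg with no read. On chromosome 11, Ccl2 and Ccl7 averaged 4834 and 1969, next to Ccl11 and Ccl12 at 1.38 and 0.297 and Ccl8 with no read.

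The collagens and the wider matrix were led by a few genes. Of 24 collagen genes, 12 had a mean of at least 1000 normalized counts, and Col1a2 took 40.6% ± 2.4 of their sum. Col8a1 had 8710, 10731 and 6499, and Col3a1, the fibrillar collagen typical of fibroblasts, had 2605, 3778 and 2397. Replicate 2 was the highest for 19 of the 22 that averaged at least 10, as it was for 32.0% of all genes of that level. The cartilage genes, Col2a1 and Col11a1 among them, were also highest there, and their part in this was not tested. Among the small proteoglycans Bgn took 62.8% ± 3.2 of the sum and exceeded Dcn 12.5-fold per kb in 3 of 3 libraries. Ogn (osteoglycin) had 11385, 11759 and 16145 normalized counts. Fstl1, a secreted glycoprotein of the follistatin family, had 20966, 20936 and 23114, and Lox, the enzyme that crosslinks collagen, had 13525, 12412 and 9410.

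In the fat lineage, adiponectin and genes of lipoprotein handling had the most reads and those of the fat droplet few. Adipoq, the gene of adiponectin, which marrow stromal progenitors of mice also express, had 13379, 12355 and 19619 normalized counts. Lpl, lipoprotein lipase, had 13279, 11882 and 12273, and Apoe, apolipoprotein E, had 10138, 8748 and 9749. Genes of the mature fat droplet were low, with means of 4.51 for Plin1, 3.34 for Cidec and 10.1 for Plin4. Cidea, Lep, Retn and Pck1 had no read. Of the 32 genes of this list, 7 had a mean of at least 1000 normalized counts.

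**Figure D3:**
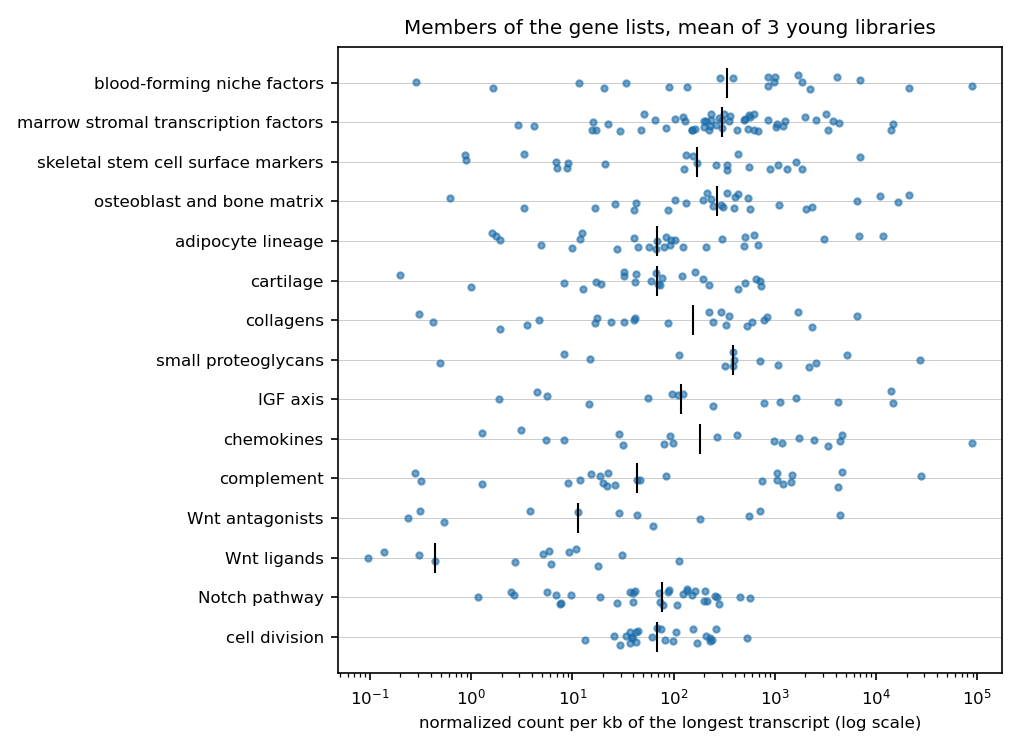
Normalized counts per kb of the longest transcript, as the mean of 3 young libraries on a log axis, with a point for each member of 15 gene lists and a black bar for the list's median, in which members without a read count as 0. Members without a read are not drawn. Most lists span 3 or more powers of 10, with Cxcl12 (88298 per kb) at the far right of the niche factors and chemokines, whereas the highest Wnt ligand, Wnt4, reaches 114 per kb.

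In the axis of insulin-like growth factors (IGF), Igfbp5 took 57.5% ± 1.2 of the sum. Pappa, a protease that cleaves IGF binding proteins, had 18812, 18199 and 16130 normalized counts, and Igfbp4, its substrate, had 14083, 14111 and 20558. Igf1 had 7900, 7522 and 8374 and was 4.67-fold higher than Igf2 per kb in 3 of 3 libraries. Igfbp1 had no read. Among receptors for platelet-derived growth factors, Pdgfrb had 6829, 7048 and 7464 normalized counts and Pdgfra 6298, 5546 and 6544, and Pdgfrb was the higher per kb in 3 of 3 libraries. In this list of FGF, PDGF and VEGF genes 14 of 31 averaged at least 1000 and Pdgfrb took only 13.6% ± 0.9 of the sum. Fgfr2 averaged 6142, Vegfc 3612 and Vegfa 2105 normalized counts.

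In the TGF-beta and BMP families, secreted antagonists stood beside ligands. Grem1, the BMP antagonist gremlin, had 8862, 7937 and 6464 normalized counts. Tgfbr3, a co-receptor, had 10959, 10807 and 10704, a CV of 1.18%. Bmp4 had 3297, 2628 and 4645 and was highest in replicate 3. Gdf5 and Chrdl2 had no read, and 12 of the 35 listed genes had a mean of at least 1000.

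Wnts are secreted ligands that stabilise beta-catenin through Frizzled receptors. Wnt4 had 557, 452 and 428 normalized counts and took 60.6% ± 2.3 of the summed level of 19 ligands, of which 6 (Wnt1, Wnt2, Wnt3a, Wnt7a, Wnt7b and Wnt9b) had no read. Sfrp4, a secreted protein that binds Wnts, had 17705, 18594 and 17564, a CV of 3.11%, and took 77.9% ± 1.7 of the antagonists' sum. Dkk1 had at most 1.12 normalized counts in any library, under the limit that a count of 0 allows, and Sost, Sostdc1 and Kremen2 had no read. Wls, needed to secrete Wnts, had 1262, 1789 and 1499, and the R-spondins Rspo2 and Rspo3, which amplify Wnt signals, averaged 1175 and 910. Among receptors Fzd1 was higher than Fzd5 per kb in 3 of 3 libraries. Axin2, a common target gene of the pathway, had 40.9, 80.8 and 49.4 normalized counts.

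In the Notch pathway 21 of 34 listed genes averaged at least 100 normalized counts and 4 a mean of at least 1000. The Notch2 receptor had 2628, 2831 and 2578, and Notch3 had 1530, 1473 and 1763. Notch2 was 1.29-fold higher per kb in 3 of 3 libraries. Jag1, a ligand, had 770, 634 and 882 normalized counts and exceeded the ligand Dll1 17.5-fold per kb in 3 of 3 libraries. Rbpj, the DNA-binding partner of the cut receptor, averaged 829. Hes1 and Hey1, target genes, averaged 826 and 262, both highest in replicate 3.

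Chemokine and complement genes were divided between high and low members. Of 22 chemokine-related genes 9 averaged at least 1000 normalized counts, and of 23 complement genes 11 averaged at least 100 and 9 at least 1000. Over all listed members, low ones included, the medians were 174 and 78.4 normalized counts. Cxcl12 took 93.6% ± 0.7 of the summed level of the chemokine list. Cxcl14 had 7290, 6416 and 11274 normalized counts, Cxcl10, an interferon-induced chemokine, had 6516, 5741 and 9916, and Ccl2, which draws monocytes, had 4558, 3719 and 6224. All 3 were highest in replicate 3 and lowest in replicate 2. In the complement list, C4b had 7762, 7567 and 8593, and C3 7780, 6863 and 7780. C1qa, C1qb and C1qc, the genes of C1q that macrophages make, averaged only 9.49, 24.5 and 26.6 normalized counts. Csf1 took 81.1% ± 0.9 of a list of osteoclast control genes. Tnfsf11, the osteoclast factor RANKL, had 403, 381 and 313 and exceeded its decoy receptor Tnfrsf11b 4.61-fold per kb in 3 of 3 libraries.

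Genes of cell division were measurable, with a median of 205 normalized counts over the list beside 139 over all genes averaging at least 10. All 25 listed genes averaged at least 10 normalized counts and 2 a mean of at least 1000. Mki67, a marker of cycling cells, had 2437, 3043 and 815, and Top2a had 1252, 1827 and 1014. Pcna, the sliding clamp of DNA replication, had 1004, 683 and 716. For 21 of 25 genes replicate 3 was the lowest, as it was for 5078 of all 14615 genes averaging at least 10, and the list summed to 10388, 12931 and 6739. The erythroid markers (8994, 11122 and 6241) and the cartilage genes (10502, 25370 and 6960) had sums in the same order, and their part in this difference was not tested. In these bulk libraries fewer cells of a type and less RNA per cell cannot be told apart. Cdkn1a, an inhibitor of the cycle, had 2066, 1813 and 3253, and Cdkn2a, an inhibitor that accumulates in senescent cells, averaged 3.26.

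**Figure D4:**
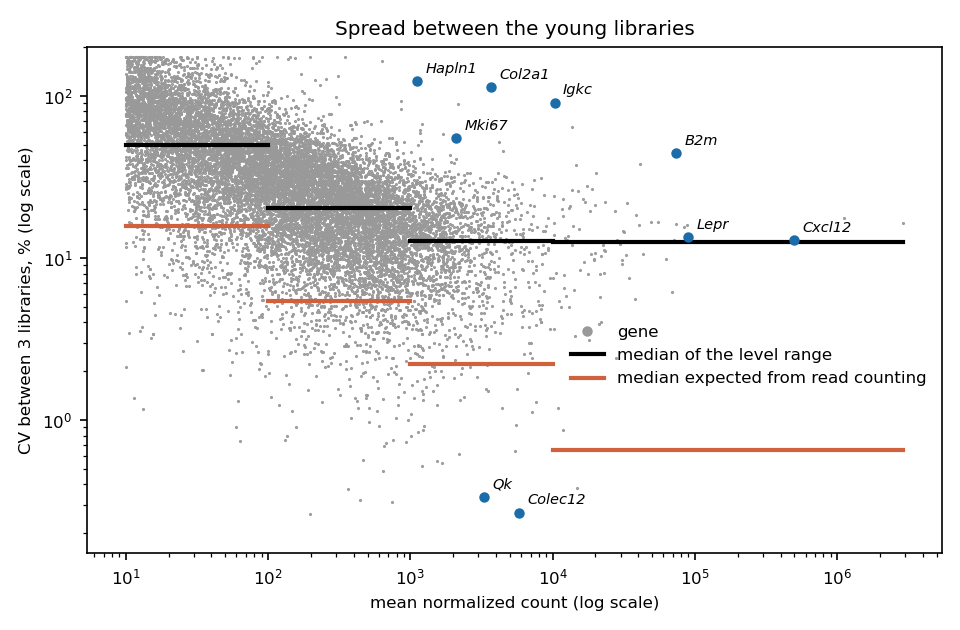
CV between 3 young libraries, in percent, against the mean normalized count for genes with a mean of at least 10, both on log scales. Black lines give the median CV of each level range and orange lines the median CV that counting of reads alone would give. The median falls to 12.6% above a mean of 10000, where counting gives 0.651%, and Hapln1, Col2a1 and Igkc lie far above it.

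The libraries agreed closely for most genes of high level. The median CV was 49.6% for 6258 genes averaging between 10 and 100 normalized counts, 20.4% for 6809 genes between 100 and 1000, 12.8% for 1457 genes between 1000 and 10000, and 12.6% for 91 genes above. Counting of reads alone would give medians of 15.7%, 5.44%, 2.21% and 0.651%. Across the 14615 genes averaging at least 10, which are not independent of each other, Spearman's rho between library pairs was 0.928 to 0.934. Of the 1548 genes averaging at least 1000, 71 had a CV over 30%, and they were highest in replicate 3 in 37, in replicate 2 in 19 and in replicate 1 in 15 cases. Whatever the CV, replicate 3 was the highest for 36.6% of genes between 1000 and 10000 and for 45.1% of those above. Among genes averaging at least 1000, the lowest CVs included 0.267% for Colec12, a scavenger receptor of the collectin family, with 5784, 5807 and 5777 normalized counts. Qk, an RNA-binding protein, had 3278, 3288 and 3299, a CV of 0.333%. Both CVs lie below the 2.21% median that counting alone would give at their level. They were picked for low values over 3 libraries, so these genes are not shown to be steadier than others.

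Among genes averaging at least 1000 normalized counts, the cartilage genes Hapln1 and Col2a1 had the largest CVs, 123% and 113%. Hapln1, which links hyaluronan to aggrecan, had 423, 2679 and 228 normalized counts, and Col2a1, the main collagen of cartilage, had 1895, 8500 and 735. Chad, chondroadherin, had 1307, 1956 and 353, and Cilp, another cartilage matrix gene, had 1114, 1890 and 513. Of 24 cartilage genes 22 averaged at least 10, and for 18 of these replicate 2 was the highest and for 18 replicate 3 the lowest. Over all 14615 genes averaging at least 10, replicate 2 was the highest for 32.0% and replicate 3 the lowest for 5078. The list summed to 10502, 25370 and 6960 normalized counts, a mean of 14278 that became 8731 without replicate 2. A shorter list of 9 chondrocyte markers summed to a mean of 7787, and 3743 without replicate 2. It is not independent of the cartilage list, since both hold Col2a1, which took 40.2% ± 12.6 of the shorter list's sum. Without that library Col2a1 averaged 1315 instead of 3710 normalized counts and Hapln1 325 instead of 1110. Sox9, the cartilage transcription factor that marrow stroma also expresses, did not share this order and had 773, 680 and 574.

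Short transcripts were higher in replicate 3 than in the other libraries. Over protein-coding genes averaging at least 100 normalized counts, split by transcript length into 5 sets of about equal size, the median log2 ratio of replicate 3 to the mean of the other libraries was 0.19 in the shortest set and -0.17 in the longest. Among 37 ribosomal protein genes, which have short transcripts, replicate 3 was the highest for 31, and the list summed to 76178, 86418 and 102145. Over all genes averaging at least 10, replicate 3 was the highest for 34.5%. B2m, the light chain of MHC class I, had 55244, 54603 and 111413 normalized counts, and the heavy chain gene H2-D1 had 28367, 30280 and 33957. Of 12 listed MHC class I genes 11 were highest in replicate 3, and without B2m the list summed to 53581, 59956 and 66239. The part of the length trend in these differences was not tested. Malat1, a long nuclear RNA, went the other way, with 52697, 47733 and 23534.

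Blood cell genes were present although the cells came from the non-hematopoietic fraction. All 7 pan-leukocyte markers had a mean of at least 10 normalized counts and summed to 2878 to 4246 per library, and Ptprc, the gene of CD45, had 827, 537 and 413. All 12 neutrophil markers had a mean of at least 10, with sums of 45595, 45525 and 72338, and 11 averaged at least 100. Over all 52459 gene symbols, 14615 averaged at least 10 and 8357 at least 100. These shares also stand beside the counts of the marker lists below. S100a9, a subunit of the neutrophil protein calprotectin, had 15771, 16814 and 27937 normalized counts and exceeded Lepr 2.33-fold per kb in 3 of 3 libraries. For 11 of the 12, replicate 3 was the highest, as it was for 34.5% of all genes averaging at least 10. The granule genes Mpo and Elane averaged 1260 and 305 and Ly6g 30.7.

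Antibody genes varied widely. Igkc, the kappa constant region, had 7069, 3002 and 20906 normalized counts, and Ighm, the heavy chain of IgM, had 12251, 5641 and 22884. Replicate 3 was the highest and replicate 2 the lowest for both, and without replicate 3 their means were 5036 instead of 10326 and 8946 instead of 13592. A single kappa variable gene, Igkv15-103, had 2179, 237 and 4082, and 1208 instead of 2166 without replicate 3. All 15 markers of B and plasma cells had a mean of at least 10, with a summed level of 19092 to 57459 per library. Only 7 of them averaged at least 100. The list's median was 96.9 normalized counts, beside 139 over all genes averaging at least 10. Ebf1 in this list is also a stromal gene, and Ms4a1, a B cell surface gene, averaged 40.1.

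Apart from Vcam1, the marker lists of other cell types summed to less than the neutrophil and the B and plasma cell lists. Such sums also depend on which genes were listed. Of 13 monocyte and macrophage markers 12 had a mean of at least 10, with sums of 29995 to 40257, but Vcam1, a stromal gene, made up 80.6% ± 2.5, and without it the sums were 5719 to 8882, with Adgre1, the gene of F4/80, averaging 28.7. All 10 erythroid markers found had a mean of at least 10 and summed to 6241 to 11122, with Hbb-bs, a beta globin, at 3835, 4163 and 2571. All 7 megakaryocyte markers had a mean of at least 10 and summed to 860, 608 and 171, lowest in replicate 3 for each of the 7, a CV of the sum of 63.8% beside 55.3% for B and plasma cells. Of all 14615 genes averaging at least 10, replicate 3 was the lowest for 5078. Of 14 endothelial markers 13 had a mean of at least 10, with sums of 770, 778 and 1777, and Pecam1 and Cdh5 averaged 138 and 111. Fabp4, also in a stromal list, made up 33.4% ± 7.4 of the endothelial sum, and without it the sums were 483, 585 and 1101. Of 11 mural cell markers 9 had a mean of at least 10, with sums of 4301 to 5605, from Abcc9, Notch3 and Rgs5 for the most part. The contractile genes Acta2, Tagln and Cnn1 averaged 13.0, 12.9 and 1.12. Notch3, Acta2, Cspg4 and Mcam of the mural list are also in stromal lists.

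The remaining marker lists were near 0 or rested mostly on 1 gene. Of 9 T and NK cell markers 2 had a mean of at least 10, and the list summed to 44.4 to 85.3 normalized counts, with no read of Cd3d, Ncr1 or Klrb1c. Of 10 skeletal muscle markers 2 had a mean of at least 10, and the list summed to 37.1 to 68.2, with no read of Myh4, Myh1, Pax7 or Myod1. Of 8 osteoclast markers 3 had a mean of at least 10, with sums of 966 to 1069, of which Ctsk, also listed with periosteal and stem cell genes, made up 63.7% ± 7.6, and Ocstamp, Dcstamp and Calcr had no read. Of 6 osteocyte markers 3 had a mean of at least 10, with sums of 2760 to 2939, 95.3% ± 1.7 of it from Phex, with no read of Sost. Of 6 Schwann cell markers 3 had a mean of at least 10, with sums of 442 to 651, mostly from S100b. The part of these other cells in the stromal values was not tested.

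**Figure D5:**
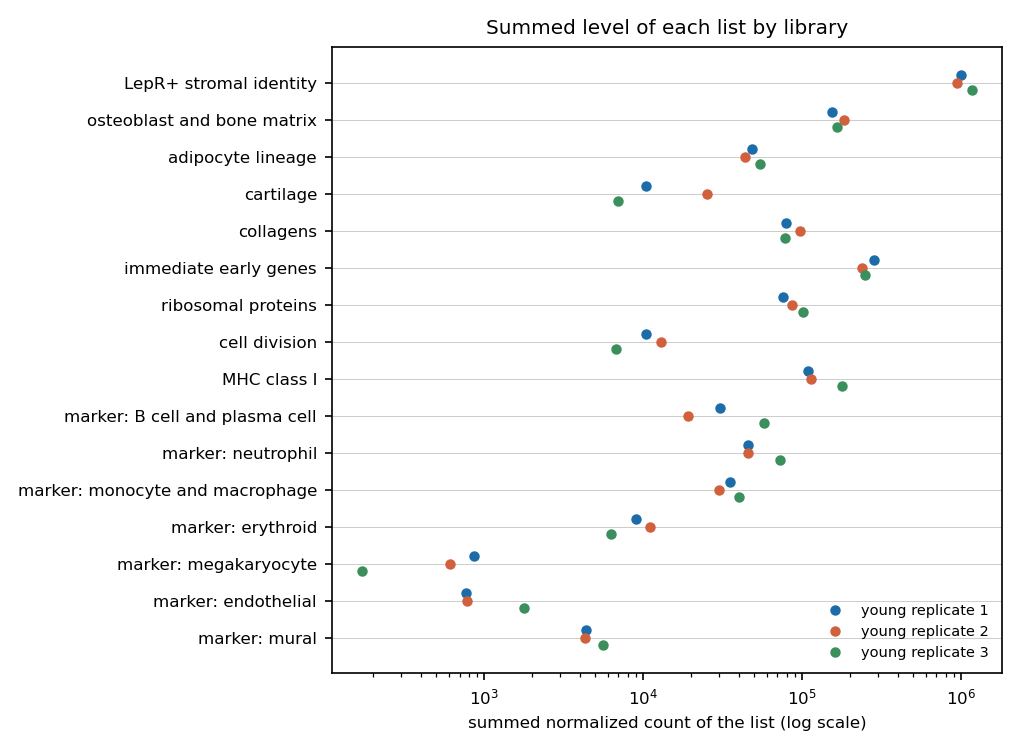
Summed normalized count of 16 gene lists on a log axis, with a point for each young library. The LepR+ stromal genes differ little (943234 to 1166266), whereas cartilage (6960 to 25370), B and plasma cell (19092 to 57459) and megakaryocyte markers (171 to 860) spread widely.

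Mitochondrially encoded genes were uneven. The protein genes mt-Co1 and mt-Cytb averaged 73528 and 40171 normalized counts, but mt-Atp6, mt-Co3, mt-Atp8, mt-Co2 and mt-Nd4l only 13.2, 6.66, 4.56, 4.45 and 1.67. A copy of part of the mitochondrial genome lies on chromosome 1 from 24611535 to 24616197, and pseudogenes there, such as Gm10925 and Gm28661, averaged 158 and 132. Reads that match both copies cannot be placed with certainty, so the values of these 5 low genes and of the pseudogenes are uncertain. Ddx3y, a Y-linked gene, had 1241, 956 and 872 normalized counts, and Xist, which is transcribed from the inactive X chromosome of females, had 0, 20.9 and 0.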

How the data were processed

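RNA of LepR+ cells was sequenced in 9 libraries, and the 3 of untreated mice at 12 weeks were used here. The signal values deposited by the authors are normalized counts for 52459 gene symbols. Per the labels and the study's methods, the tools were bcl2fastq, STAR on the mouse genome (mm10, GRCm38), featureCounts and DESeq2. Their versions, the gene annotation and the strandedness are not given in the sources used here, so reads of overlapping and antisense genes may be mixed. Levels are not divided by gene length.

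Whole reads were recovered by finding the step of each column, and 99.995% to 100% of the values of a library were whole within 0.1. A count test on them could not be made with 1 group. Symbols were matched to GENCODE release M21 (48001, 91.5%, and a further 195 by synonym), which gave lengths and positions. Genes were ranked by mean normalized count, with the SD, the CV and the CV expected from counting. CVs were summarized for genes averaging at least 10 normalized counts. Common and trended dispersions and TMM factors came from edgeR 4.0.16 in R 4.3.3, other values from Python 3.11.15, pandas 2.3.3, numpy 2.4.6 and matplotlib 3.10.9. Recovery of reads and dispersion was tested on simulated data.

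Named genes were the 30 highest and the 10 highest per kb outside the mitochondrial genome, 2 to 4 leading members and the members without a read of 48 lists (830 genes found), the 15 most and 10 least variable genes with a mean of at least 1000, and genes the study measured. Other members of the lists are named beside these. A few list members are not reported here by name. Members and lists were chosen with earlier results of these data known. Alternatives were other scalings, filters, lengths and summaries, and leaving out each library. A search for 7 motifs in the promoters of the 100 leading genes is void, since only 73 of them (73%) had a listed promoter, as are those of 50 genes (76%) and 500 genes (75.6%).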

Additional observations from a re-analysis of the deposited data

How the results depend on the processing

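No paired analysis was possible because only 1 group was used and no comparison was made. Of 252 values recomputed with other scalings, filters and lengths, 246 were kept. Kept means within the spread between libraries or, for counts of genes, within 1.5 times the value given. For the median CV it means within 0.904, the SD of its values with each library left out in turn. The kept values include the 192 list sums under other scalings. Those scalings held the average scaling factor of the 3 libraries fixed, so means over the libraries could hardly move, and the list sums say little about the choice. Leaving out 1 of 3 libraries cannot move a mean beyond its SD, so for the list sums that setting is read by fold. It moved 2 sums by over 1.5 times, both without replicate 2, to 8731 from 14278 normalized counts for the cartilage genes and to 3743 from 7787 for the chondrocyte markers. Both lists hold Col2a1, so the 2 moves are not independent. The order of genes depended on length, since 65 of the 100 leading genes remained among the leading 100 per kb of merged exons, against 70 per kb of the longest transcript and 97 to 98 when a library was left out. Lepr moved from rank 4 to a range of 4 to 5 when a library was left out, and its level ranged from 83950 to 96054 and that of Cxcl12 from 460157 to 518017 normalized counts. The median CV of 26.9% became 18.6% for a mean of at least 100, 55.1% with every gene that had a read, 46.1% as edgeR's common and 35.7% as its median trended dispersion, and 20.9% to 22.6% with a library left out. The cause was not tested, and the last case also had fewer libraries. The 100 leading genes held 53.7% of the counts with the mitochondrial ribosomal RNAs included, instead of 32.6%. The motif alternatives with 50 and 500 genes were void for lack of listed promoters. Below about 3 reads a level cannot be told from 0, and no test of an order of genes was run.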

Other observations

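Genes of iron handling and redox control that the text has not yet described were also among the high levels. Fth1 and Ftl1, the heavy and light chains of the iron store ferritin, had 15465, 17125 and 22278 and 8632, 7591 and 10166 normalized counts, and Cp, the copper-carrying ferroxidase ceruloplasmin, had 21829, 20300 and 21627. Replicate 3 was the highest for both ferritin genes and replicate 1 for Cp. Of 26 antioxidant genes found, 25 had a mean of at least 100 and 17 a mean of at least 1000. Hmox1, heme oxygenase, varied more, with 4910, 2935 and 5756.

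The summed level of proteases and their inhibitors was steady between libraries. Serpine2, an inhibitor of thrombin, had 27725, 28626 and 27306 normalized counts, a CV of 2.42%, and Adamts2, which trims procollagens, had 6791, 7146 and 6929. Cst3, the cysteine protease inhibitor cystatin C, had 11190, 12159 and 17889, and its transcript is short. The list of 34 genes summed to a mean of 116257 ± 2090 (SD, n = 3), and Mmp13, a collagenase, was lower in replicate 3, with 6225, 6169 and 3720.

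Among 17 imprinted growth genes, Dcn, Grb10, Sgce, Igf2, Plagl1 and Igf2r averaged at least 1000 normalized counts, whereas H19, Meg3 and Dlk1 averaged 13.3, 8.65 and 0.373. Cdkn1c, an imprinted inhibitor of the cell cycle, had 864, 452 and 1385. In the list of inflammatory genes, Il6st, the shared receptor chain of interleukin-6, had 7575, 7638 and 6414, and Tnf averaged 19.1. Rn7sk, a small nuclear RNA, and Gm26917, a long noncoding RNA, had 2802, 3056 and 6680 and 2381, 2286 and 6741 normalized counts, both far higher in replicate 3, and without it the mean of Gm26917 was 2333 instead of 3803. Tfrc, the transferrin receptor, which erythroid precursors carry at high level, had 1658, 1484 and 340, and the erythroid markers were likewise lowest in replicate 3, for 8 of 10. That library was the lowest for 5078 of all 14615 genes averaging at least 10.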
